A study of Mus musculus with 6 samples.

Results

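The genes described here encode lysyl oxidases and other proteins that modify collagen: Lox, Loxl1, Loxl2, Loxl3, Plod1, Plod2, P4ha1, P4ha2, Serpinh1 and Pcolce. They were taken by symbol from the deposited gene count table, where all 10 were found among 23358 gene rows, and all 10 were among the 13784 genes that had enough counts to be tested. RNA came from MC3T3-E1 cells, a line of pre-osteoblasts from the calvaria of C57BL/6 mice that lays down a collagen matrix in culture. Confluent cultures were given NU7441, which blocks the DNA-dependent protein kinase, at 1 µM or the solvent DMSO, each for 16 h. There were 3 samples per group, all of the same cell line and with no allele added or removed. Per the design text of the series, the cultures in triplicate from 3 independent experiments were pooled; it does not tie a sample number to an experiment, and the p-values here cover only the variation among the 3 samples of a group, which may be technical.

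Collagen is modified in 2 places. Inside the endoplasmic reticulum, prolyl 4-hydroxylase adds hydroxyl groups to prolines, which keeps the triple helix stable at body temperature, lysyl hydroxylases modify lysines in the same way, and the chaperone encoded by Serpinh1 holds the folded helix until it leaves. Outside the cell the propeptides are cut off and lysyl oxidases convert lysines and hydroxylysines to aldehydes, from which the cross-links of bone collagen form. These steps need iron, ascorbate and oxygen for the hydroxylases and copper for the lysyl oxidases, and osteoblasts run them at a high rate.

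The 3 genes that fell all have a start site in the RefSeq promoter table (GRCm38.p6, the assembly of mm10). The bases before each start are shown with the core motif of the hypoxia-inducible factor, ACGTG or GCGTG. Whether the factor bears on the fall of these genes was not tested. Each window ends at the base before the start site, runs 5′ to 3′ on the gene's strand, and has these motifs on either strand in capitals. The windows are chr10:59323046-59323295 on the plus strand for P4ha1, chr11:54100674-54100923 on the plus strand for P4ha2 and chr7:99353240-99353489 on the minus strand for Serpinh1.
P4ha1: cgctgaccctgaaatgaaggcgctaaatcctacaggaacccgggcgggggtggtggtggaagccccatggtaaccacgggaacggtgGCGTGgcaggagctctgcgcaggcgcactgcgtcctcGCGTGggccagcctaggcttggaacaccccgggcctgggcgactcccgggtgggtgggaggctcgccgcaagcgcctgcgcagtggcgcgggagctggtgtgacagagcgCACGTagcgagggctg
P4ha2: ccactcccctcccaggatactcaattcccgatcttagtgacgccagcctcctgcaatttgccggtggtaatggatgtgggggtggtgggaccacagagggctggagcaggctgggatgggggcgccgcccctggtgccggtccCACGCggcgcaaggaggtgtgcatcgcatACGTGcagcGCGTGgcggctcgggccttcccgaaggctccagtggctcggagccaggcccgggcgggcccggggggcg
Serpinh1: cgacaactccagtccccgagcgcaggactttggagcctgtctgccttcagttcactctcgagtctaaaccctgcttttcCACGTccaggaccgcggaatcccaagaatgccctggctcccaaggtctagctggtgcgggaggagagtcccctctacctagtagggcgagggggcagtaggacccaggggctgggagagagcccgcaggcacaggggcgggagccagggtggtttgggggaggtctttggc
P4ha1 and P4ha2 each held 1 ACGTG and 2 GCGTG, and Serpinh1 held 1 ACGTG, and no matches overlapped in these windows. Of the other members, Plod1 and Pcolce, which were not called, had an entry in the table and each held 1 GCGTG. Of 32817 promoter windows of 250 bases in the table, 38.6% held at least 1 of these motifs. The 5 member windows were 58.8% to 70% G or C, and the set of all windows was not matched for this. In the Pcolce window 83 bases were annotated as exon of Pcolce itself. The core of the heat shock element, GAANNTTC, was in 0 of these 5 windows and in 6.69% of all windows. A match is a run of letters and was not tested for binding.

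Setting NU7441 against DMSO shows which of these transcripts moved under treatment with NU7441. Serpinh1 fell by 11.3%, P4ha2 fell by 9.64% and P4ha1 fell by 7.46%, and Lox was 8.77% higher, while Loxl1, Loxl2, Loxl3, Plod1, Plod2 and Pcolce did not pass the test. Thus 4 of 10 members passed edgeR's quasi-likelihood test at a Benjamini-Hochberg adjusted p of 0.05, against 30.7% of all genes tested. The 1 that was higher stands beside 14.1% of all genes called higher, and the 3 that were lower beside 16.6% called lower. The median log2 fold change was 0.01 over the 10 members and 0.01 over all genes tested. With upper-quartile scaling 2 members were higher and 2 lower, and 56.5% of all calls were higher, against 45.9% with the TMM scaling used here. The gene counts totalled 52150994 to 55021692 in the NU7441 samples and 47312968 to 71292628 in the DMSO samples. Levels per sample are given as CPM, the count scaled to the TMM-adjusted library size. These are bulk samples, in which fewer cells of a type and less RNA per cell cannot be told apart.

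**Figure D1:**
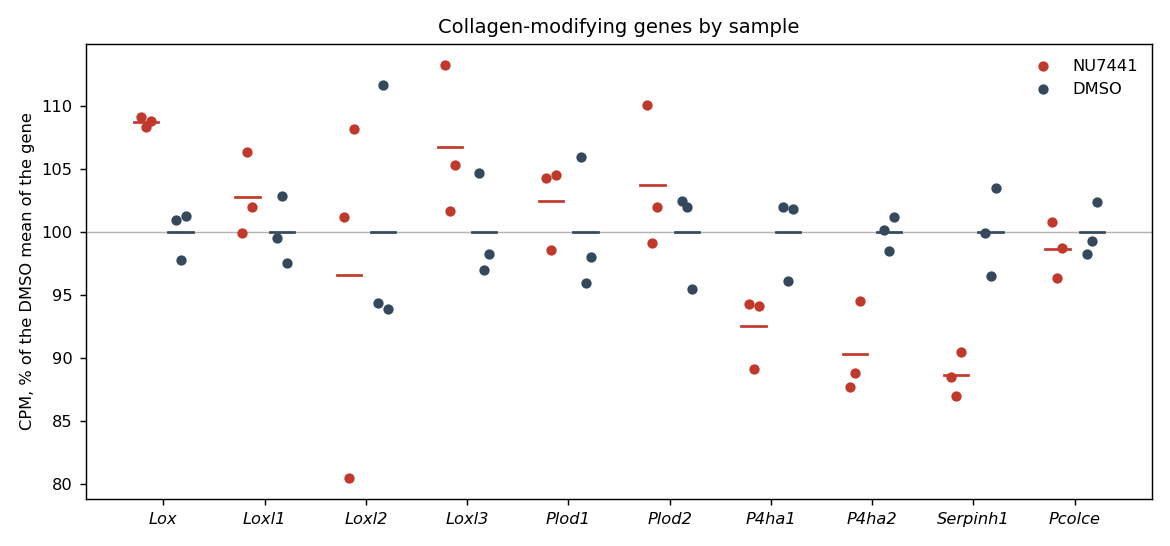
Level of each of the 10 genes in each sample (points), as CPM in percent of the gene's DMSO mean, with the group mean as a bar (3 samples per group). All NU7441 samples lie above all DMSO samples for Lox and below them for P4ha1, P4ha2 and Serpinh1, and the groups overlap for the other 6 genes.

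The 10 osteoblast and mesenchymal markers summed to 10401 to 10489 RPKM in NU7441 and 9937 to 10492 RPKM in DMSO, and all 10 were detected. The sum is mostly collagen, and 6 of the 10 markers were called, 4 higher and 2 lower, against 30.7% called of all genes tested. Ibsp, which encodes bone sialoprotein, fell to 7.09 CPM in NU7441, against 13.1 CPM in DMSO (-0.89 ± 0.15 on the log2 scale, edgeR adjusted p = 0.000414). Alpl, the alkaline phosphatase gene, was lower as well (-0.29 ± 0.07, edgeR adjusted p = 0.00597). Bgn (0.26 ± 0.02, edgeR adjusted p = 4.6e-08) and Spp1 (0.25 ± 0.03, edgeR adjusted p = 5.2e-06), matrix genes of bone, rose. Sparc (0.11, edgeR adjusted p = 0.0079) and Col1a2 (0.05, edgeR adjusted p = 0.0238) were called higher with groups that overlapped, and Runx2, Sp7, Postn and Col1a1 were not called. A robust fit of edgeR ended the calls of Ibsp (adjusted p = 0.0589), Alpl (0.095), Sparc (0.17) and Col1a2 (0.189). The call of Col1a2 was also lost without NU7441 replicate 2 or 3 or DMSO replicate 1 or 2, with DESeq2 and with library size only.

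Leukocyte markers summed to 2.15 to 2.52 RPKM in NU7441 and 1.93 to 2.33 RPKM in DMSO, with Ptprc and Emr1 at 0 in every sample. Cd14 passed among the 3 of these 5 markers that were tested, and was higher in NU7441 (0.52 ± 0.15 on the log2 scale, edgeR adjusted p = 0.0164, and 0.0537 without DMSO replicate 3). Among chondrocyte markers Col2a1 was called higher (edgeR, adjusted p = 0.0464), but not without NU7441 replicate 1 or 2 or any 1 DMSO sample (adjusted p from 0.089 to 0.173). The part of the osteoblast, leukocyte and chondrocyte markers in the results was not tested. Endothelial, adipocyte, chondrocyte, muscle and epithelial markers each summed to less than 2.2 RPKM in every sample, with Kdr, Acan, Myod1 and Epcam at 0.

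Lox encodes the founding lysyl oxidase, which acts on the fibrillar collagens and elastin (mm10 chromosome 18, 52517238 to 52529708). Lox had 625, 620.3 and 623 CPM in the NU7441 samples, against 578, 559.8 and 579.8 CPM in the DMSO samples. The NU7441 samples were close to each other and all above the DMSO samples, as they were for 20.6% of all genes tested. Groups stood apart in either direction for 42.8% of those genes. The mean was 623 ± 2.30 CPM in NU7441 and 573 ± 11.1 CPM in DMSO (SD, n = 3 each). The log2 fold change was 0.12 ± 0.03 with an adjusted p of 0.00251 in edgeR, and 49.9% of all genes tested had a smaller change. The call was kept without any 1 sample, with adjusted p values for Lox from 0.00421 to 0.0162 in edgeR.

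Loxl3, which mice need for normal palate and spine development, had a log2 fold change of 0.09 ± 0.04 and did not pass (edgeR, adjusted p = 0.122). Its CPM were 79.0, 70.9 and 73.5 in NU7441 and 73.0, 67.7 and 68.5 in DMSO, so that the groups overlapped. Without NU7441 replicate 2, Loxl3 passed (0.13, edgeR adjusted p = 0.0407), as it did with upper-quartile scaling (0.12, edgeR adjusted p = 0.0448). The Loxl3 row shares 1298 bases with Htra2, a protease gene with 1478 to 1536 counts in NU7441 and 1498 to 2204 in DMSO that was called lower (-0.11 on the log2 scale, edgeR adjusted p = 0.0357). The sources used here do not say if counting used the strand, so reads of these 2 genes cannot be told apart where they overlap.

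Loxl1, needed for elastic fibre upkeep in mice, had 52.5, 55.9 and 53.6 CPM in NU7441 and 52.3, 54.1 and 51.2 CPM in DMSO. The 2 ranges overlapped, and the log2 fold change was 0.04 with a 95% interval of -0.04 to 0.12 (edgeR, adjusted p = 0.459). Loxl2, which cross-links collagen of basement membranes, had the fewest counts of the 10 genes, with 184, 152 and 196 counts in NU7441 and 182, 184 and 234 counts in DMSO. Its 95% interval was the widest of the 10 genes, -0.34 to 0.26 around a log2 value of -0.04 (edgeR, adjusted p = 0.851). The sign of the Loxl2 value turned without NU7441 replicate 2 (0.07) and without DMSO replicate 2 (0.04).

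Neither of the 2 lysyl hydroxylases among the 10 genes passed. Plod1, which hydroxylates lysines within the helix, had 58.5, 55.3 and 58.7 CPM in NU7441 and 59.5, 53.9 and 55.03 CPM in DMSO. Its log2 fold change was 0.04, with a 95% interval of -0.06 to 0.13 (edgeR, adjusted p = 0.583). Plod2, the enzyme of the collagen telopeptides, whose product sets the kind of cross-link, had 109.6, 98.6 and 101.5 CPM in NU7441 and 102.0, 101.5 and 95.01 CPM in DMSO. NU7441 replicate 1 was the highest sample and the others mixed, with a log2 fold change of 0.05 and a 95% interval of -0.04 to 0.14 (edgeR, adjusted p = 0.376). Together the intervals of the 2 genes ran from -0.06 to 0.14 on the log2 scale. Plod2 shares 647 bases with B430319G15Rik, which had 70 to 118 counts in NU7441 and 76 to 124 in DMSO, few beside the 4820 to 6820 counts of Plod2 in all samples.

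Both alpha subunit genes of prolyl 4-hydroxylase among the 10 fell, P4ha1 less stably. P4ha2, the subunit prominent in bone and cartilage (mm10 chromosome 11, 54100924 to 54131667), had 69.8, 70.7 and 75.2 CPM in NU7441, against 79.7, 78.4 and 80.5 CPM in DMSO. Every NU7441 sample was below every DMSO sample, as for 22.2% of all genes tested, and the log2 fold change was -0.15 ± 0.04 (SE; edgeR, adjusted p = 0.00682). P4ha1, the most widely expressed alpha subunit (mm10 chromosome 10, 59323296 to 59373304), had 178, 169 and 178 CPM in NU7441, against 193, 182 and 193 CPM in DMSO. Its groups did not overlap either, but the gap between the highest NU7441 and the lowest DMSO sample was narrow, 178.4 against 182.0 CPM. The log2 fold change of P4ha1 was -0.11 ± 0.03 (SE; edgeR, adjusted p = 0.0202). The P4ha1 call was lost without NU7441 replicate 2 (edgeR adjusted p = 0.111), without DMSO replicate 1 (0.0939), without DMSO replicate 3 (0.0946) and with upper-quartile scaling (0.0583), whereas that of P4ha2 was kept without any 1 sample.

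Serpinh1, which encodes the collagen chaperone of the endoplasmic reticulum (mm10 chromosome 7, 99345375 to 99353239), had the largest fall of the 10 genes. It had 1118, 1099 and 1143 CPM in NU7441, against 1262, 1219 and 1308 CPM in DMSO, with no overlap. The mean was 1120.0 ± 22.3 CPM in NU7441 and 1263 ± 44.4 CPM in DMSO (SD, n = 3 each). The log2 fold change was -0.17 ± 0.03 (SE; edgeR, adjusted p = 0.000174), and 63.9% of all genes tested had a smaller change. Without any 1 sample the Serpinh1 value lay between -0.20 and -0.15 (edgeR, adjusted p from 0.000143 to 0.00149).

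Pcolce encodes the procollagen C-proteinase enhancer, a secreted protein that speeds removal of the carboxyl propeptide. It had 856, 818 and 838 CPM in NU7441 and 835, 843 and 869 CPM in DMSO, and the groups overlapped. Its log2 fold change was -0.02, with a 95% interval of -0.08 to 0.04 (edgeR, adjusted p = 0.623). That interval was among the narrowest of the 10 genes, and the sign of the value turned with upper-quartile scaling (0.01).

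**Figure D2:**
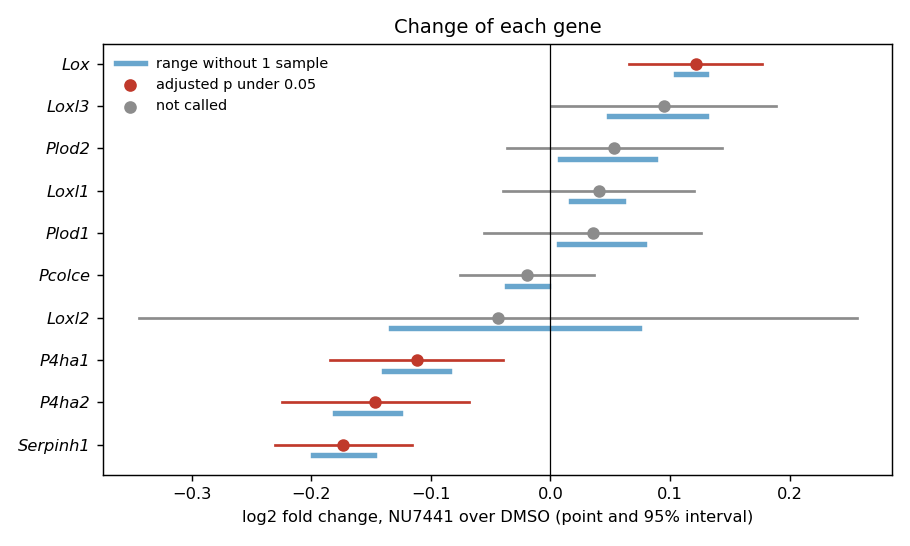
Log2 fold change of NU7441 over DMSO for each gene from the fit over all genes (point), with its 95% interval (line) and the range of values when 1 sample is left out (blue bar). Lox lies right of 0 and P4ha1, P4ha2 and Serpinh1 lie left of it with their whole intervals. Loxl2 has the widest interval, -0.34 to 0.26.

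Levels between genes were compared as deposited RPKM, which divides counts by gene length and library size. Pcolce stood highest at 403 ± 14.7 RPKM in NU7441 and 417 ± 11.03 RPKM in DMSO, followed by Serpinh1 at 339.6 ± 8.47 RPKM in NU7441 and 391 ± 16.6 RPKM in DMSO. Pcolce was above 99.6% of the gene rows in both groups. Lox followed at 128 ± 2.38 RPKM in NU7441 and 120.2 ± 3.17 RPKM in DMSO (SD, n = 3 each), above 99.0% of the rows in NU7441 and 98.9% in DMSO. The sample ranges of these 3 genes overlapped neither each other nor that of the next gene in either group.

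The hydroxylases lay in the middle of the order. P4ha1 had 32.1 ± 1.35 RPKM in NU7441 and 35.4 ± 1.41 RPKM in DMSO, P4ha2 22.7 ± 0.776 RPKM in NU7441 and 25.7 ± 0.536 RPKM in DMSO, and Plod2 20.6 ± 1.45 RPKM in NU7441 and 20.3 ± 0.693 RPKM in DMSO. The ranges of P4ha2 and Plod2 overlapped in NU7441 (22.1 to 23.6 RPKM for P4ha2 and 19.5 to 22.3 RPKM for Plod2) and not in DMSO. Plod1 and Loxl3 overlapped in both groups, at 13.1 ± 0.561 RPKM for Plod1 and 13.6 ± 0.965 RPKM for Loxl3 in NU7441, and 13.1 ± 0.723 RPKM for Plod1 and 13.0 ± 0.573 RPKM for Loxl3 in DMSO. Loxl1 was just below them at 11.98 ± 0.258 RPKM in NU7441 and 11.9 ± 0.235 RPKM in DMSO. Loxl2 came last with 0.480 ± 0.0739 RPKM in NU7441 and 0.507 ± 0.0477 RPKM in DMSO.

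**Figure D3:**
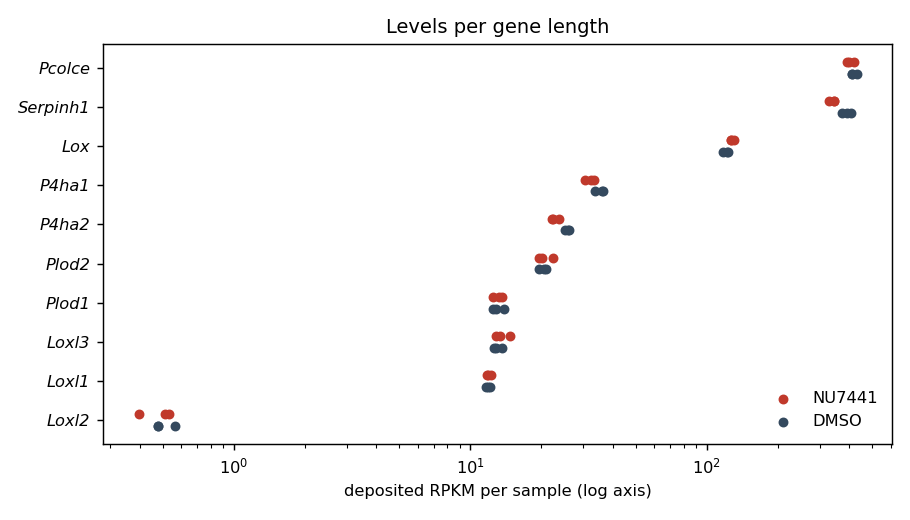
Deposited RPKM of the 10 genes in each sample on a log axis, ordered by the DMSO mean. For each gene the row of NU7441 points is drawn over the row of DMSO points, whatever their values. The order runs from Pcolce at 403 RPKM in NU7441 and 417 RPKM in DMSO to Loxl2 at 0.480 RPKM in NU7441 and 0.507 RPKM in DMSO.

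The make-up of each enzyme family was then compared. Lox made up 76.2% ± 0.532 of the summed RPKM of the 5 lysyl oxidase genes in NU7441 and 75.1% ± 0.519 in DMSO (SD, n = 3 each), and the groups overlapped. Loxl4, which is not among the 10 genes, held 8.72%, 7.91% and 8.10% in NU7441, against 9.33%, 8.73% and 8.82% in DMSO. These shares of Loxl4 did not overlap, by a narrow margin (exact permutation test, two-sided p = 0.1, the smallest that n = 3 per group allows). The shares of Loxl1, Loxl2 and Loxl3 overlapped, as did those of Plod1, Plod2 and Plod3 in their family. The log2 ratio of Loxl1 to Lox was -3.42 ± 0.05 in NU7441 and -3.34 ± 0.07 in DMSO, and that of Plod2 to Plod1 was 0.65 ± 0.06 in NU7441 and 0.64 ± 0.08 in DMSO. The log2 ratio of P4ha2 to P4ha1 was -0.50 ± 0.06 in NU7441 and -0.46 ± 0.03 in DMSO. None of 5 such ratios, which included Loxl2 and Loxl3 to Lox, reached a p of 0.1, the smallest that 3 against 3 samples allow. The p ran from 0.2 to 0.7 (exact permutation test, two-sided, adjusted p = 0.7 over the 5). No ratio could pass at 0.05, so the test cannot show that the ratios were alike.

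The third alpha subunit gene, P4ha3, which is not among the 10, moved the other way from P4ha1 and P4ha2. P4ha3 had 179, 174 and 165 CPM in NU7441, against 141, 144 and 136 CPM in DMSO. All NU7441 samples were above all DMSO samples, with 0.30 ± 0.03 on the log2 scale (SE) and an adjusted p of 7.1e-06 in edgeR. Of the summed RPKM of the 3 alpha subunit genes, P4ha3 held 49.7% ± 1.55 in NU7441 and 42.4% ± 1.19 in DMSO, P4ha1 29.4% ± 0.731 in NU7441 and 33.4% ± 0.949 in DMSO, and P4ha2 20.9% ± 1.03 in NU7441 and 24.2% ± 0.318 in DMSO. Each of the 3 shares was without overlap between groups (exact permutation test, two-sided p = 0.1, the smallest p that n = 3 per group allows). Comparing shares within families was chosen after the values were seen. The family summed to 109.1 ± 3.27 RPKM in NU7441 and 106.1 ± 1.32 RPKM in DMSO (SD, n = 3 each). P4hb, the beta subunit that all 3 alpha subunits need and that is also a protein disulfide isomerase, fell, with 1160.5, 1216 and 1232 CPM in NU7441 and 1321, 1361 and 1383 CPM in DMSO (log2 fold change -0.17 ± 0.03, edgeR adjusted p = 0.000144).

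**Figure D4:**
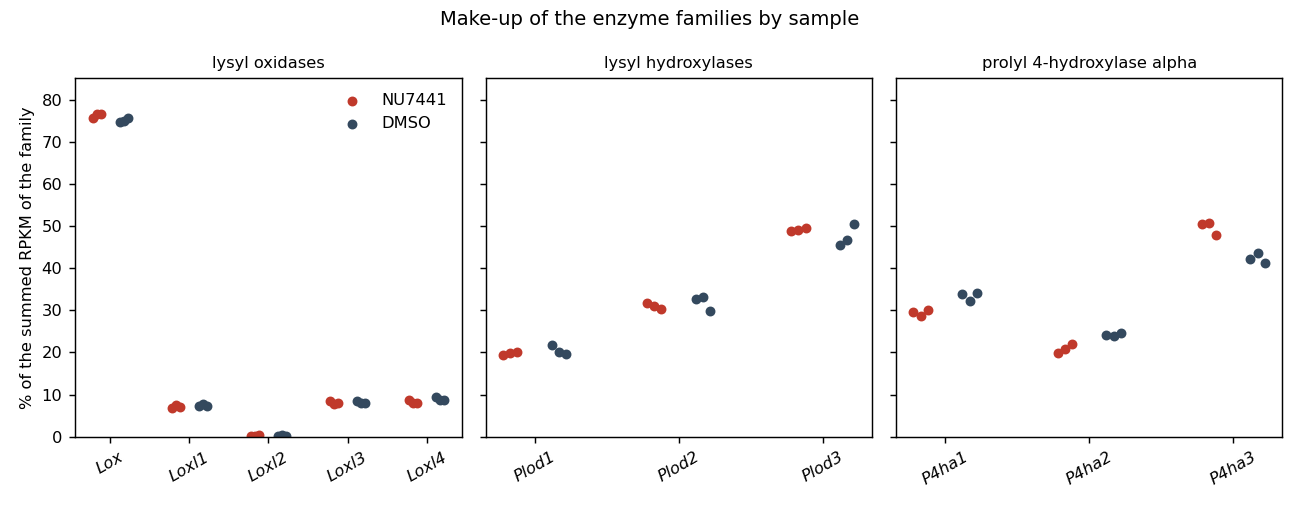
Share of each gene in the summed deposited RPKM of its family, in percent, for each sample (points, 3 per group). In the prolyl 4-hydroxylase panel P4ha3 holds 49.7% in NU7441 and 42.4% in DMSO on average, with no overlap, while Lox holds about the same large share of its family in both groups (76.2% and 75.1%).

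The other genes of collagen modification were taken from 6 lists, which held 80 genes, of which 73 were tested. Of these, 21 were higher and 8 lower in NU7441, together 39.7%, with a median log2 fold change of 0.02, against 30.7% called and a median of 0.01 over all genes tested. Leaving out DMSO replicate 1 gave 12 higher, as did leaving out DMSO replicate 2. By list the share called ran from 26.7% for the hydroxylase cofactors and hypoxia targets to 63.6% for the 11 collagen chains and 80% for the 5 genes of propeptide removal. In the list of other modifying enzymes and their partners 4 of 16 tested genes were higher and 1, P4hb, was lower, and the median was 0.01. The share called in this list, 31.25%, was near the 30.7% of all genes tested (14.1% higher and 16.6% lower). Leprel1, which encodes prolyl 3-hydroxylase 2, rose to 24.4 ± 0.546 CPM in NU7441, against 20.5 ± 0.684 CPM in DMSO (log2 fold change 0.25 ± 0.05, edgeR adjusted p = 0.000648). Plod3, the remaining lysyl hydroxylase, was called higher at 0.13 ± 0.05 (edgeR, adjusted p = 0.0414), although its groups overlapped. The Plod3 call was lost without NU7441 replicate 1, NU7441 replicate 3, DMSO replicate 1 or DMSO replicate 2 (adjusted p from 0.121 to 0.209 in edgeR), and with library size only (adjusted p = 0.0956) and a robust fit (adjusted p = 0.119). Loxl4 (-0.02, edgeR adjusted p = 0.793), Fkbp10, an isomerase that assists telopeptide hydroxylation (-0.04, edgeR adjusted p = 0.328), and both Lepre1 (0.03, edgeR adjusted p = 0.559) and Crtap (0.04, edgeR adjusted p = 0.335), partners in the prolyl 3-hydroxylation complex, did not pass. In this list 2 were higher with DMSO replicate 1 or 2 left out and with library size only, and the number lower was 2 without DMSO replicate 1 and with library size only.

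Genes of propeptide removal went both ways. Pcolce2, the second enhancer gene, fell to 5.87 ± 0.492 CPM in NU7441, against 9.52 ± 0.571 CPM in DMSO. Its fitted log2 difference was -0.70 ± 0.09 (edgeR, adjusted p = 3.1e-05). Adamts14, of the family that removes amino propeptides, fell by 0.46 in log2 units (edgeR, adjusted p = 4.1e-05), and Furin, a convertase that activates several of these proteases, was higher at 0.13 ± 0.04 (edgeR, adjusted p = 0.0111, and 0.0681 without DMSO replicate 1). Bmp1, the procollagen C-proteinase that also activates Lox, had 119 ± 4.01 CPM in NU7441 and 113 ± 1.93 CPM in DMSO (0.08, edgeR adjusted p = 0.0816). Bmp1 passed without NU7441 replicate 1 (edgeR, adjusted p = 0.0336), with upper-quartile scaling (edgeR, adjusted p = 0.0241) and with the replicate number as a term. Of 5 tested genes 2 were higher and 2 lower, against 14.1% higher and 16.6% lower of all genes tested, and the median was 0.08. The number higher was 1 without NU7441 replicate 2, NU7441 replicate 3 or DMSO replicate 2 and 0 without DMSO replicate 1.

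Of the 14 genes that carry procollagen out of the endoplasmic reticulum or regulate that step, 3 were lower and 1 higher, and their median was 0.00. Together 28.6% of this list was called, near the 30.7% of all genes tested, of which 16.6% were lower and 14.1% higher. Sec13, a coat protein of the exporting vesicles, fell to 86.6 ± 1.45 CPM in NU7441, against 98.3 ± 2.54 CPM in DMSO (-0.18 ± 0.03, edgeR adjusted p = 0.000672). Kdelr2, a receptor that returns chaperones to the endoplasmic reticulum, fell by 0.13 in log2 units (edgeR, adjusted p = 0.00479), and Tmed2, a cargo receptor, fell by 0.11 (edgeR, adjusted p = 0.00959, and 0.0518 without NU7441 replicate 2). The number higher was 0 with library size only and without NU7441 replicate 1, NU7441 replicate 2, DMSO replicate 1 or DMSO replicate 2.

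Partners of the lysyl oxidases and genes of copper supply had 4 of 12 tested genes higher and 1 lower, with a median of 0.02. Together 41.7% of them were called, against 30.7% of all genes tested (14.1% higher and 16.6% lower). Fmod, which encodes fibromodulin, a proteoglycan that binds both collagen and Lox, rose to 3525 ± 107 CPM in NU7441, against 2726 ± 109 CPM in DMSO (0.37 ± 0.03, edgeR adjusted p = 5.5e-08). Fn1, the fibronectin gene, was called higher (0.18 ± 0.05, edgeR adjusted p = 0.00657) but not with DESeq2 (adjusted p = 0.0874) or a robust fit of edgeR (adjusted p = 0.198). Dcn, the decorin gene, was called lower (-0.23 ± 0.06, edgeR adjusted p = 0.00667) but not with the robust fit (adjusted p = 0.138), which left 0 genes of this list lower.

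Of 15 genes for hydroxylase cofactors and targets of the hypoxia-inducible factor, 4 were higher and 0 lower, and their median was 0.06. The share called, 26.7%, was below the 30.7% of all genes tested, and 1 of the 4 calls rested on 1 library. Slc23a2, a transporter of the cofactor ascorbate, rose to 122 ± 3.07 CPM in NU7441, against 94.7 ± 2.70 CPM in DMSO (0.36 ± 0.03, edgeR adjusted p = 1.1e-06). Ndrg1 (0.35 ± 0.04, edgeR adjusted p = 8.3e-06) and Mxi1 (0.26 ± 0.06, edgeR adjusted p = 0.00481), both hypoxia-inducible genes, rose as well. Apart from Egln1, the other targets of the factor in the list were not called. These were Vegfa (0.00), Slc2a1 (-0.06), Pdk1 (-0.05), Bnip3 (-0.11), Egln3 (-0.23), Adm (-0.70, with 2 to 14 counts a sample), Kdm3a (0.06), Ankrd37 (0.12) and Car9 (0.43, edgeR adjusted p = 0.0573). Car9 passed without NU7441 replicate 3 (edgeR, adjusted p = 0.0159). It also passed with upper-quartile scaling, no low-count filter, a robust fit, halved counts or the replicate number as a term. The fourth gene called higher, Egln1, singled out after its values were seen, was called through 1 library. Egln1 had 15442 counts in NU7441 replicate 2, against 2066 and 2152 in the other NU7441 samples and 1774 to 3066 in DMSO, and its log2 fold change of 1.62 became 0.03 without that library (edgeR, adjusted p = 0.751). The Egln1 call was also lost without any 1 DMSO sample (adjusted p from 0.0777 to 0.117 in edgeR). The number lower was 1 without NU7441 replicate 1.

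The fibrillar collagen chains, the substrates of these enzymes, had 6 of 11 genes higher and 1 lower, with a median of 0.10. Of all genes tested, 14.1% were higher and 16.6% lower. Col5a2 rose to 2665 ± 17.7 CPM in NU7441, against 2316 ± 43.3 CPM in DMSO (0.20 ± 0.02, edgeR adjusted p = 6e-07), and Col5a3 rose by 0.31 (edgeR, adjusted p = 0.000233). Col3a1 was lower at -0.18 ± 0.04 (edgeR, adjusted p = 0.0013, and 0.0998 in a robust fit), and Col1a1, the main collagen of bone, did not pass (edgeR, adjusted p = 0.97). The number of chains higher was 3 with DMSO replicate 1 or 2 left out, with DESeq2 and with a robust fit, and the number lower was 2 without NU7441 replicate 2 and 0 with the robust fit.

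**Figure D5:**
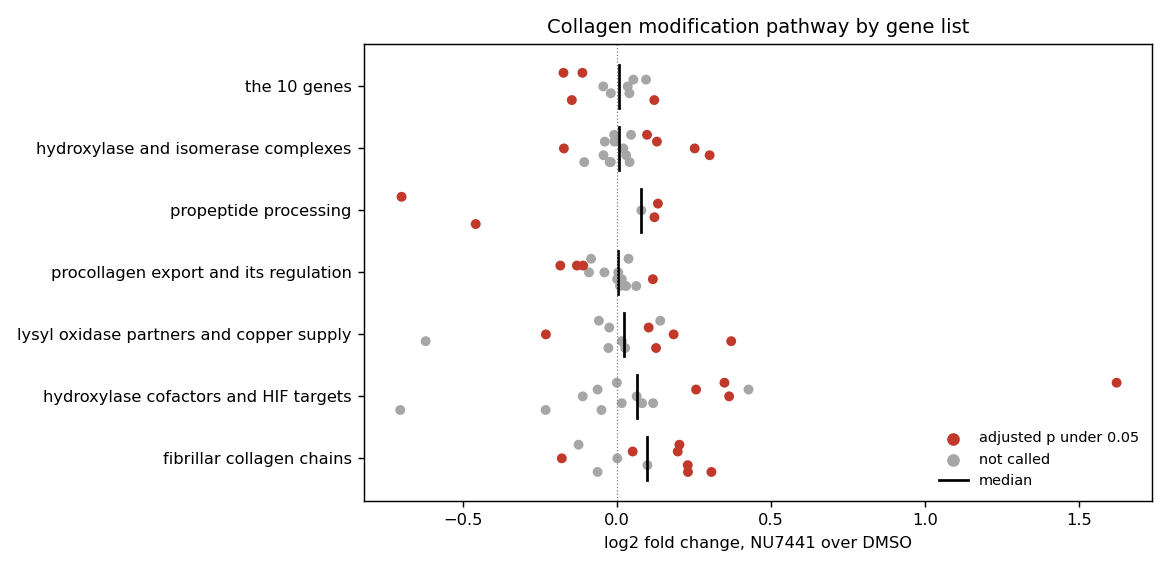
Log2 fold change of NU7441 over DMSO for each tested gene of the 10 described here and of the 6 lists (points, red where the adjusted p is under 0.05), with the median of each list as a bar. Medians lie between 0.00 and 0.10, the point at 1.62 is Egln1, whose value rests on 1 library, and the lowest called genes are Pcolce2 at -0.70 and Adamts14 at -0.46.

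Serpinh1 had the lowest adjusted p of the 10 genes, and the genes whose log2 CPM followed it most closely over the 6 samples were Col6a2, Fam136a and Atp5g1. Their Pearson r with Serpinh1 was 0.997, 0.996 and 0.995. With 6 samples in 2 groups, which share the group difference, 295 genes had an r above 0.95, so that this is a description only.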

How the data were processed

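RNA-seq of 3 NU7441 and 3 DMSO samples was used. Libraries were made from total RNA with an Illumina mRNA kit, per the labels' protocols. Build mm10 and the tools HTSeq, TopHat2 2.0.6 and bcl2fastq are listed, without roles, in the submitters' processing notes. The authors deposited a count and an RPKM value per gene and sample. Of 23358 rows, 0 held an odd count, so each read pair appears to be counted as 2. The deposited RPKM values divide by gene length and library size. Of the sample columns, 0 were left unmapped.

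The main test was edgeR's quasi-likelihood F test (edgeR 4.0.16, R 4.3.3) after filterByExpr with a minimum count of 10 and a total of 15 and TMM scaling, with group as the only term and Benjamini-Hochberg adjustment over 13784 genes at 0.05. The SE is the log2 fold change divided by the square root of F. CPM use TMM-adjusted library sizes. DESeq2 1.42.0, other scalings, no filter, a robust fit, halved counts, removal of Rn45s, a replicate term and leaving out each sample were alternatives. In simulated counts for this comparison (13682 genes run, changed genes averaging at least 100 counts) edgeR recovered 80% of genes changed by 1.25-fold and 98% at 1.5-fold. Only 50 genes were changed at each fold, and 6 of 195 calls were false. In the data 30.7% of genes tested were called, so this recovery may not carry over. Smaller changes, such as those of the 10 genes, were not simulated. All pairs of samples within a group differed beyond counting noise, with chi-square over its degrees of freedom from 3.56 to 8.33.

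The 10 members and the gene lists were chosen with earlier results of these data known. Named genes are the members, the 3 genes of lowest adjusted p in each list, Bmp1, P4hb, Plod3, Loxl4, Lepre1, Crtap, Fkbp10 and Col1a1, and the 3 genes most like the member of lowest adjusted p. Others are named as overlapping genes, family members or markers, and Egln1 and the uncalled hypoxia targets after their values were seen. Promoter windows were searched on both strands. This search covered 5 of the 10 members and left out Lox, on chromosome 18.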

Additional observations from a re-analysis of the deposited data

How the results depend on the processing

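Lox, P4ha2 and Serpinh1 kept their direction and their call under all 15 alternatives run. The number of members called higher, 1 in the fit reported, was 2 with upper-quartile scaling and 2 with the replicate number as a term, and 1 to 2 with each sample left out; the added gene was Loxl3 (log2 fold change 0.12 with upper-quartile scaling, 0.09 with the replicate block and 0.13 without NU7441 replicate 2). The number of members called lower was 2 to 3 with each sample left out. The number of other pathway genes called higher was 12 to 19 with each sample left out. The values of 2 uncalled genes changed sign: Loxl2 was 0.074 without NU7441 replicate 2 and 0.036 without DMSO replicate 2, within a range of -0.13 to 0.074 with each sample left out, and Pcolce was 0.0059 with upper-quartile scaling. In the list of hydroxylase and isomerase complexes the number lower, 1 in the fit reported, was 2 with no low-count filter, 2 with DESeq2 and 2 with the replicate block. In the block fit 1 gene of hydroxylase cofactors and hypoxia targets was lower, against 0, and 3 collagen chains were lower, against 1. The cause of these changes was not tested.

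The main fit did not pair the samples by number, because the labels do not say what a number marks. Same-numbered samples deviated from their group means with correlations of 0.134, 0.088 and 0.047. Samples of unlike number had -0.12 to 0.034, so every sample correlated best with its own number. Whether the numbers pair the samples is not settled. With the replicate block 5120 genes passed, against 4231 without it, and 5 members against 4. Over all genes tested, the number called was 3466 to 3910 with each sample left out. Ratios between related members moved by less than their spread. For Loxl2, with 152 to 234 counts a sample, depth limits what can be seen.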
